A study of Mus musculus with 6 samples.

Results

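Collagen leaves the fibroblast as a hydroxylated triple helix and is then joined into fibres outside the cell. The 10 genes described here encode enzymes of those steps and a collagen chaperone: the lysyl oxidases LOX, LOXL1, LOXL2, LOXL3 and LOXL4, the lysyl hydroxylases PLOD1 and PLOD2, the prolyl 4-hydroxylase alpha subunits P4HA1 and P4HA2, and SERPINH1. They were chosen by symbol, each symbol had 1 row in the deposited table, and all 10 of the 20323 gene rows passed the filter on low counts that left 11970 genes for testing. The cells were fibroblasts of a kidney line named RFB. Of the 6 libraries, 3 were from cells given CXCL10 (a chemokine whose receptor is CXCR3) on top of TGF-β, and 3 were from cells given TGF-β alone, a cytokine that drives matrix production. TGF-β is thus common to all 6 libraries, and cells without TGF-β are not part of the comparison. The series' design text speaks of a SUV39H1 knockdown, which no sample label mentions, so the groups here are those of the sample labels and whether any library carries a knockdown is not known. The titles of the CXCL10 samples give a volume of 5 µl with no concentration. The labels call the organism mouse, whereas all 20323 rows carry human Ensembl identifiers, and levels here are those of human genes.

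In the endoplasmic reticulum, prolyl 4-hydroxylases convert prolines of procollagen to hydroxyproline, which holds the triple helix together at body temperature, and lysyl hydroxylases convert lysines that later carry sugars or crosslinks. SERPINH1 binds the folded helix and escorts it toward the Golgi. Outside the cell, copper-dependent lysyl oxidases oxidise lysines and hydroxylysines of collagen and elastin, and the aldehydes so formed link neighbouring molecules. In kidney and other organs these enzymes are studied as determinants of how stiff and how soluble scar collagen is.

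Libraries held 12838106 to 15587409 counts. The deviations of the libraries from their group means went with the replicate numbers, most clearly for replicate 1, so results are given with and without pairing by number. TGF-β replicate 1 stood apart from its group: over all genes tested its log2 profile lay 48.7 and 49.5 units (Euclidean distance) from the other TGF-β libraries and 39.7 to 45.8 from the CXCL10 libraries. Of the 10 fibroblast markers examined, 10 averaged at least 1 CPM (counts scaled to a library of fixed total), and they summed to 50611 to 54928 CPM in CXCL10 libraries and 52966 to 60439 CPM in TGF-β libraries. Most of that sum is collagen, and single markers lay apart between the groups, as did 22.3% of all genes tested. VIM had 3567, 3217 and 3154 CPM in CXCL10 libraries and 2944, 2329 and 2402 CPM in TGF-β libraries. THY1 was likewise higher in every CXCL10 library, whereas DCN and LUM were lower in every CXCL10 library. Of 10 kidney epithelial markers 4 were at 0 counts in every library (CDH16, LRP2, AQP2 and UMOD). The 10 summed to 15.4 to 21.8 CPM with CXCL10 and 19.9 to 22.3 CPM with TGF-β alone. Most of that was KRT7, at 8.51 to 11.9 CPM over the 6 libraries, and PAX8, at 5.92 to 8.69 CPM. CDH1 was low and its groups lay apart, at 0.211, 0.474 and 1.42 CPM in CXCL10 libraries and 1.55, 1.99 and 3.68 CPM in TGF-β libraries. Endothelial markers summed to 47.9 to 51.9 CPM with CXCL10 and 50.4 to 51.6 CPM with TGF-β alone, with EMCN at 0 counts. Nearly all of that was TEK, at 44.7 to 48.5 CPM over the 6 libraries, with VWF at most 2.85 and PECAM1 at most 1.05 CPM. Leukocyte markers summed to 39.6 to 45.9 CPM with CXCL10 and 37.7 to 43.9 CPM with TGF-β alone, with CD3E at 0 counts. There CD68 made up nearly all, at 36.3 to 44.3 CPM, with CD14 at most 1.65 and PTPRC at most 0.553 CPM. The sum of smooth muscle and pericyte markers was lower with CXCL10 in each pair. It was 184, 264 and 262 CPM in CXCL10 libraries and 252, 301 and 329 CPM in TGF-β libraries. Most of it was CNN1, at 75.8 to 157 CPM, and NOTCH3, at 69.7 to 116 CPM. RGS5, at most 1.06 CPM, was higher with CXCL10 in replicate 1. The part of these markers in the results below was not tested.

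By level per gene length (FPKM, fragments per kilobase of gene and per 1e6 mapped), the 10 genes spanned a wide range, and SERPINH1 was the highest. It averaged 752 ± 14.8 FPKM with CXCL10 and 787 ± 9.44 FPKM with TGF-β alone (SD, n = 3 in each group, as for all group means below), which placed it 55th of all rows by its mean over the 6 libraries. LOX and LOXL2 followed at almost the same level. LOX averaged 523 ± 27.7 FPKM with CXCL10 and 531 ± 9.60 FPKM with TGF-β alone, and LOXL2 averaged 504 ± 9.42 FPKM with CXCL10 and 547 ± 13.7 FPKM with TGF-β alone. LOX was above LOXL2 in 2 of 6 libraries, so the order of these neighbours was not settled by the spread. PLOD2 came next at 311 ± 15.4 FPKM with CXCL10 and 305 ± 10.4 FPKM with TGF-β alone. P4HA2 held 215 ± 2.17 FPKM with CXCL10 and 201 ± 13.3 FPKM with TGF-β alone, and PLOD1 held 201 ± 4.80 FPKM with CXCL10 and 195 ± 4.42 FPKM with TGF-β alone. The ranges of P4HA2 and PLOD1 overlapped as well, with P4HA2 above PLOD1 in 5 of 6 libraries. P4HA1 averaged 92.7 ± 4.06 FPKM with CXCL10 and 89.1 ± 3.77 FPKM with TGF-β alone. The remaining lysyl oxidases were far lower. LOXL1 averaged 19.8 ± 2.85 FPKM with CXCL10 and 21.5 ± 1.39 FPKM with TGF-β alone, and LOXL4 averaged 15.8 ± 2.09 FPKM with CXCL10 and 21.5 ± 3.97 FPKM with TGF-β alone. LOXL3 was near the low end at 1.86 ± 0.48 FPKM with CXCL10 and 2.18 ± 0.87 FPKM with TGF-β alone. LOXL1 exceeded LOXL4 in 4 of 6 libraries. Apart from LOX with LOXL2, P4HA2 with PLOD1 and LOXL1 with LOXL4, neighbours in this order had ranges over the 6 libraries that did not overlap.

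**Figure D1:**
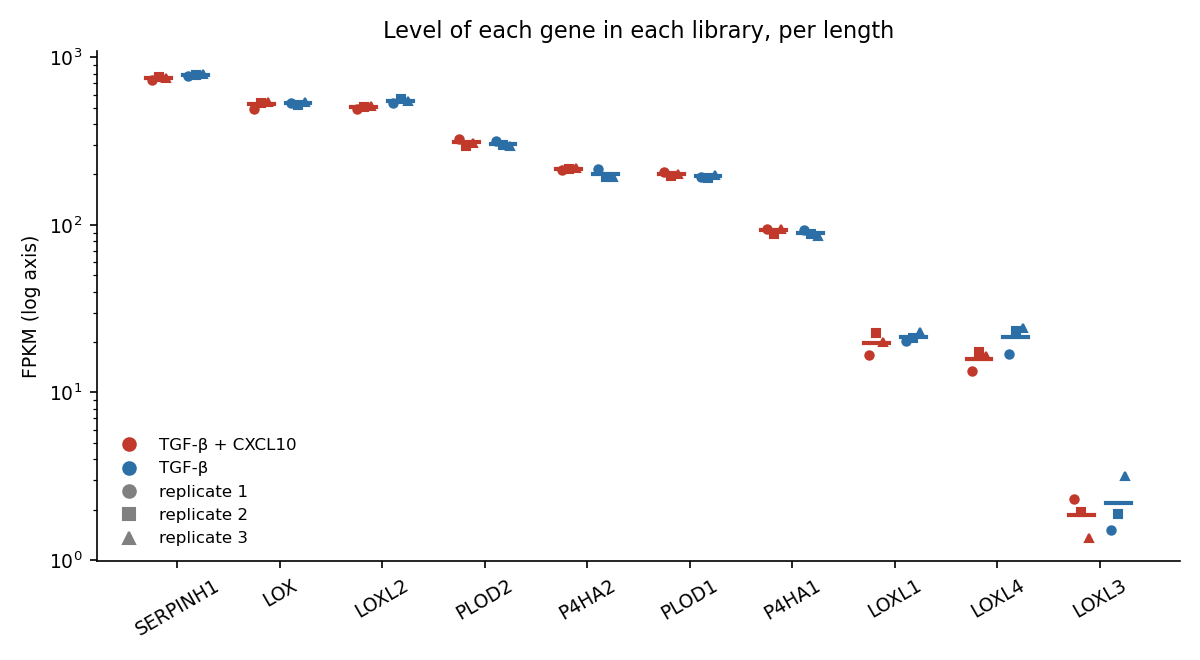
FPKM of each gene (log axis) in the TGF-β + CXCL10 libraries (red, left of each pair) and the TGF-β libraries (blue, right), with a point per library and a bar at the group mean of 3. SERPINH1, LOX and LOXL2 lie highest and LOXL1, LOXL4 and LOXL3 lowest, and the order of the genes is nearly the same in both groups.

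The lysyl oxidase transcripts were thus mostly those of LOX and LOXL2. Of the summed FPKM of the 5 lysyl oxidases, LOX took 48.3%, 49.4% and 49.7% in CXCL10 libraries and 48.2%, 46.2% and 47.4% in TGF-β libraries. LOXL2 took 48.5%, 46.8% and 46.8% in CXCL10 libraries and 48.3%, 49.7% and 48.1% in TGF-β libraries. LOX took a larger share in every CXCL10 library than in any TGF-β library, by a margin of 0.15 percentage points at the nearest pair. The LOXL2 shares overlapped, as did the FPKM of LOX itself. The summed FPKM of the 5 was lower in every CXCL10 library, at 1016.7, 1085.0 and 1090.5, against 1103.5, 1128.2 and 1140.1 in TGF-β libraries. How often such shares or sums lie apart for other genes was not counted. Among lysyl hydroxylases, with PLOD3 included, PLOD2 held 53.4% ± 0.85 with CXCL10 and 54.0% ± 1.22 with TGF-β alone, and PLOD1 held 34.6% ± 0.35 with CXCL10 and 34.5% ± 0.77 with TGF-β alone. Among prolyl 4-hydroxylase alpha subunits P4HA2 held 68.0% ± 1.02 with CXCL10 and 67.4% ± 0.45 with TGF-β alone. These are shares of transcript within a library and do not depend on how libraries were scaled. The ratio of P4HA2 to P4HA1 was 2.32 ± 0.10 with CXCL10 and 2.25 ± 0.06 with TGF-β alone, and that of PLOD2 to PLOD1 was 1.54 ± 0.04 with CXCL10 and 1.57 ± 0.07 with TGF-β alone, with overlapping groups in both cases.

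The question of the design is what CXCL10 does to TGF-β-treated fibroblasts. For most of these enzymes the difference was small: 5 of 10 genes had a positive and 5 a negative log2 change, and 2 passed the test in the fit paired by replicate number (edgeR quasi-likelihood, Benjamini-Hochberg adjusted p under 0.05). LOXL4 fell and P4HA2 rose. In the unpaired fit 0 of 10 passed, as did 0.0% of all 11970 genes tested, although LOXL4 and P4HA2 had an unadjusted p of 0.0153 and 0.0380 there, and 20.5% of all genes an unadjusted p under 0.05. In the paired fit 17.7% of all genes were called, 9.71% higher and 8.04% lower, so 2 of 10 is close to the background. The median change of the 10 genes was 0.00 (log2) in both fits, and that of all genes -0.01. The median absolute change was 0.09 for the 10 genes and 0.16 for all genes in the paired fit, or 0.12 for the 574 genes with a mean CPM at least that of P4HA1. DESeq2 called 0 of the 10 without pairing, where it called 3.41% of all genes, and LOXL4 and P4HA2 with pairing (adjusted p = 0.00368 and 0.0441), where it called 10% of all genes. In the authors' deposited table, 1.33% of genes with a count had an adjusted p under 0.05 and none of the 10 did, and LOXL4 had the lowest of theirs, at 0.129, with a log2 ratio of -0.44.

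**Figure D2:**
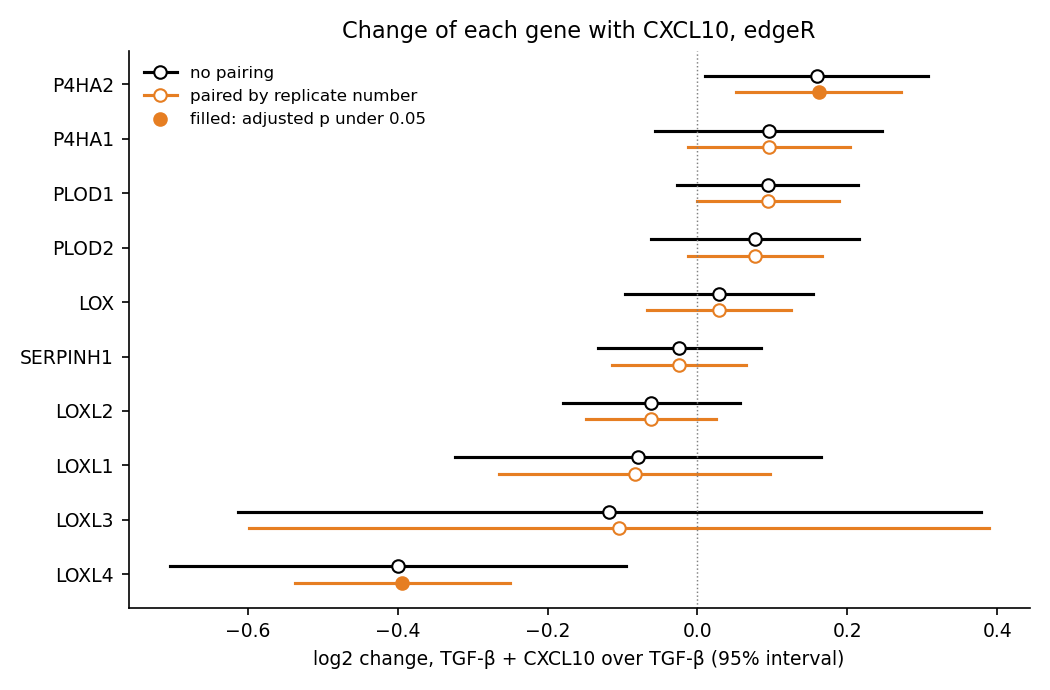
Log2 change with CXCL10 (TGF-β + CXCL10 over TGF-β, horizontal axis) and its 95% interval for each gene, in the unpaired edgeR fit (black) and the fit paired by replicate number (orange). Filled points passed an adjusted p under 0.05: LOXL4 at -0.39 and P4HA2 at 0.16, both in the paired fit.

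LOXL4 (ENSG00000138131), a matrix-directed member of the lysyl oxidase family, had 49.4, 63.9 and 60.0 CPM in CXCL10 replicates 1, 2 and 3, against 61.4, 81.0 and 86.2 CPM in TGF-β replicates 1, 2 and 3 (CPM after TMM scaling between libraries). It was lower with CXCL10 in each of the 3 pairs, yet the groups overlapped, because TGF-β replicate 1 lay below CXCL10 replicate 2. The paired log2 change was -0.39 (SE 0.07, adjusted p = 0.00124), a fall of 23.9% with a 95% interval of 15.9% to 31.1%. The pairs differed by -0.31, -0.34 and -0.52. The unpaired log2 change was -0.40 (SE 0.14, adjusted p = 0.175). Within groups, replicate 1 lay below the mean of replicates 2 and 3 by 0.33 (log2) with CXCL10 and by 0.44 with TGF-β alone, which is about the size of the treatment difference. The call held in the paired fits without replicate 1, 2 or 3 (adjusted p = 1.02e-06, 0.000716 and 0.0363), which called 23.6%, 10.3% and 7.48% of all genes. With so few pairs left, p-values of such fits rest mostly on variance shared across genes. They measure little of the spread of LOXL4 itself. Without TGF-β replicate 1 the unpaired change was -0.53 (adjusted p = 0.00565), in a fit that called 19.3% of all genes and 2 of the 10.

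LOX (ENSG00000113083), the founding enzyme of the family, had 1986, 2162 and 2196 CPM in CXCL10 replicates 1, 2 and 3, against 2099.6, 2005 and 2111 CPM in TGF-β replicates 1, 2 and 3. CXCL10 replicate 1 was the lowest library of all and the other CXCL10 libraries the highest, so the groups overlapped at both ends. The unpaired log2 change was 0.03 (SE 0.06, adjusted p = 0.799), with a 95% interval from a fall of 6.45% to a rise of 11.3%. The sign was negative when libraries were scaled by totals (-0.01 unpaired, -0.02 paired) and in FPKM (-0.02), and the authors' deposited table also lists -0.02. LOXL2 (ENSG00000134013), which is secreted and crosslinks collagen IV among other substrates, had 1639, 1778 and 1731 CPM in CXCL10 replicates 1, 2 and 3, against 1749, 1811 and 1812 CPM in TGF-β replicates 1, 2 and 3. It was lower with CXCL10 in each pair, by 0.09, 0.03 and 0.07 (log2), and CXCL10 replicate 2 overlapped TGF-β replicate 1. Its paired log2 change of -0.06 (SE 0.04, adjusted p = 0.330) did not pass, and its 95% interval ran from -9.77% to 1.72%. In FPKM all CXCL10 libraries lay below all TGF-β libraries for LOXL2, and the share of all genes for which this was so was not counted.

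LOXL1 (ENSG00000129038), the lysyl oxidase most closely tied to elastic fibres, had 40.3, 53.6 and 48.1 CPM in CXCL10 replicates 1, 2 and 3, against 48.2, 48.4 and 53.4 CPM in TGF-β replicates 1, 2 and 3. CXCL10 replicate 1 was the lowest library and CXCL10 replicate 2 the highest, so the groups overlapped, and the paired difference was -0.26, 0.15 and -0.15 in turn. Its paired log2 change was -0.08 (SE 0.08, adjusted p = 0.551). Without replicate 1 of both groups it was 0.00. LOXL3 (ENSG00000115318), another secreted member, rested on 69, 68 and 56 counts in CXCL10 replicates 1, 2 and 3 and on 60, 80 and 86 counts in TGF-β replicates 1, 2 and 3. At this depth its 95% interval was wide, from -34.0% to 30.9% in the paired fit (log2 change -0.11, SE 0.23, adjusted p = 0.809). That interval takes in a fall and a rise, and the log2 change of LOXL3 turned to 0.16 in the paired fit without replicate 3. LOXL1 has an antisense transcript, as does P4HA2, and since it is not given whether counting used strand, reads of such partners cannot be told apart.

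**Figure D3:**
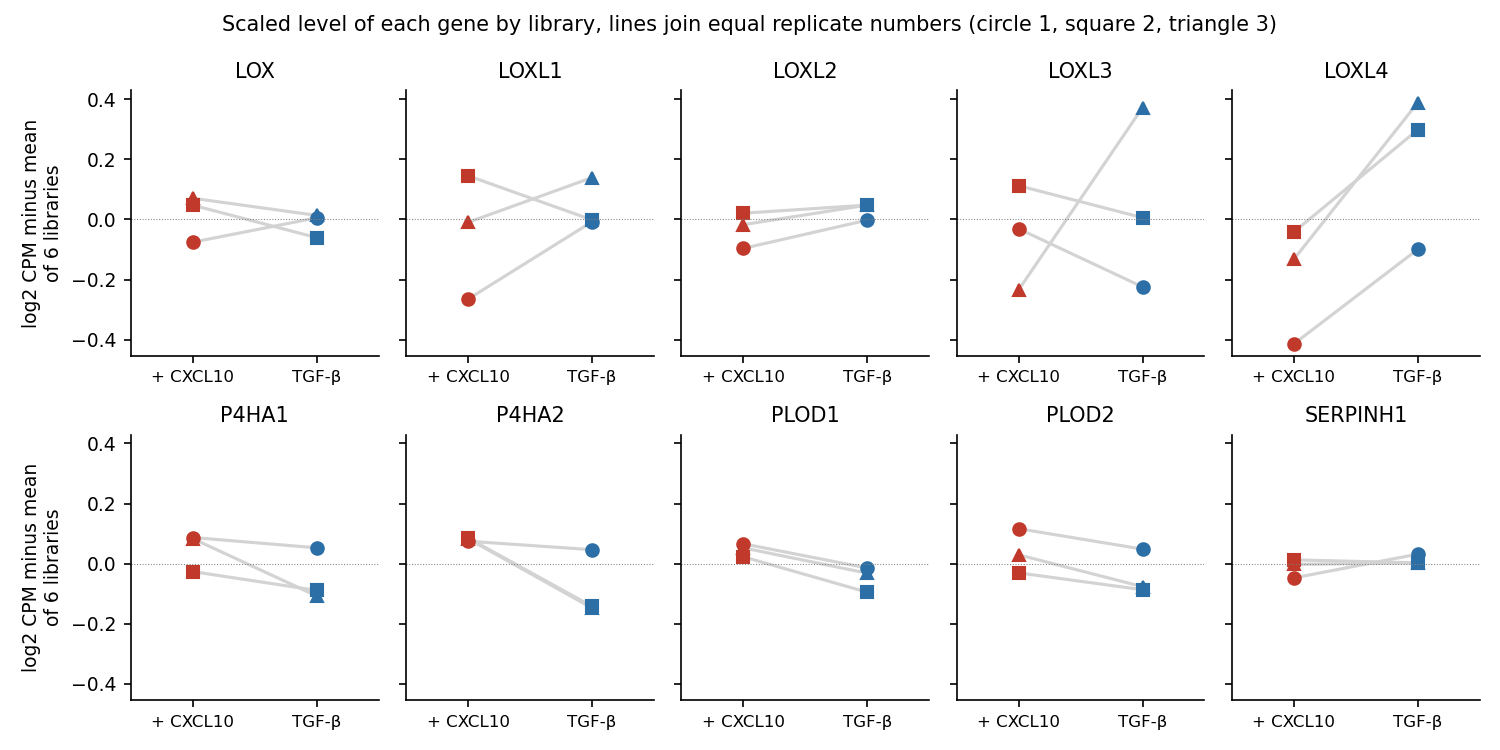
Log2 CPM of each gene in each library minus its mean over the 6 libraries, with TGF-β + CXCL10 (red) left of TGF-β (blue) and grey lines joining equal replicate numbers. LOXL4 falls by 0.31 to 0.52 in each pair, and P4HA2 differs by 0.03 in replicate 1 and by 0.23 in replicates 2 and 3. For LOX, LOXL1, LOXL3 and SERPINH1 the pairs do not all go the same way. Lines also cross for genes whose pairs all go 1 way, P4HA2 among them.

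Of the 4 hydroxylases 1, P4HA2, passed in the paired fit, which called 17.7% of all genes. P4HA2 (ENSG00000072682), an alpha subunit that carries the catalytic site of prolyl 4-hydroxylase, had 512, 515 and 514 CPM in CXCL10 replicates 1, 2 and 3, against 502, 440.2 and 438 CPM in TGF-β replicates 1, 2 and 3. The CXCL10 libraries were nearly identical and all lay above the TGF-β libraries, with TGF-β replicate 1 close beneath them. Groups lay apart and higher with CXCL10 for 11.1% of all genes tested. In FPKM the groups of P4HA2 overlapped. The paired log2 change was 0.16 (SE 0.05, adjusted p = 0.0438), a rise of 11.9% with a 95% interval of 3.63% to 20.8%. The unpaired change was 0.16 (SE 0.07, adjusted p = 0.222). The pairs differed by 0.03, 0.23 and 0.23, so replicate 1 contributed little of the rise. The paired call was lost without replicate 2 (0.13, adjusted p = 0.319) or replicate 3 (0.14, adjusted p = 0.332), with scaling by library totals (0.12, adjusted p = 0.0935) and on log2(FPKM + 1) (0.10, limma-trend adjusted p = 0.299). LOXL4 alone of the 10 was called in each of these 4 fits, and the last of them called 18.7% and 5.76% of all genes (library totals and limma-trend). Without TGF-β replicate 1 and without pairing the change was 0.23 (adjusted p = 0.00877).

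P4HA1 (ENSG00000122884), the more widely expressed alpha subunit, had 266, 246 and 265 CPM in CXCL10 replicates 1, 2 and 3, against 259, 235 and 232 CPM in TGF-β replicates 1, 2 and 3. It was higher with CXCL10 in each pair, by 0.03, 0.06 and 0.19 (log2), with CXCL10 replicate 2 below TGF-β replicate 1. Its paired change of 0.10 (SE 0.05, adjusted p = 0.220) did not pass, and its 95% interval ran from -0.85% to 15.1%. PLOD1 (ENSG00000083444), which hydroxylates lysines in the helical part of collagen, had 599, 581 and 593 CPM in CXCL10 replicates 1, 2 and 3, against 567, 536 and 559.8 CPM in TGF-β replicates 1, 2 and 3. Its groups did not overlap, which was so for 22.3% of all genes tested (those higher with CXCL10 were 11.1% of all genes tested). Its FPKM groups overlapped. The paired change was 0.09 (SE 0.04, adjusted p = 0.165). PLOD2 (ENSG00000152952), which hydroxylates the telopeptide lysines that lead to stable pyridinoline crosslinks, had 1241, 1121 and 1169 CPM in CXCL10 replicates 1, 2 and 3, against 1184, 1079 and 1086 CPM in TGF-β replicates 1, 2 and 3. It was higher in each pair, by 0.07, 0.06 and 0.11 (log2), while the groups overlapped. Its paired change of 0.08 (SE 0.04, adjusted p = 0.235) had a 95% interval from -0.86% to 12.2%. Without replicate 1 of both groups P4HA1 (0.13, adjusted p = 0.0328) and PLOD1 (0.10, adjusted p = 0.0394) were also called, in the fit that called 23.6% of all genes.

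SERPINH1 (ENSG00000149257), the collagen chaperone, varied least of the 10 genes. It had 1511, 1575 and 1558 CPM in CXCL10 replicates 1, 2 and 3, against 1596, 1564 and 1564 CPM in TGF-β replicates 1, 2 and 3. The CXCL10 libraries lay on both sides of TGF-β replicates 2 and 3. The unpaired log2 change was -0.02 (SE 0.05, adjusted p = 0.809), with a 95% interval from -8.82% to 6.02%. In FPKM, which is scaled by the authors, its CXCL10 libraries had 737, 766 and 753 FPKM. All lay below its TGF-β libraries, at 777, 787 and 796 FPKM, so whether the groups overlap depends on the scaling. The share of all genes with groups apart in FPKM was not counted.

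Other genes that modify or fold collagen in the endoplasmic reticulum included calls on the higher side in the paired fit. Of 14 such genes 13 were tested, with 5 higher and 0 lower calls in the paired fit, beside 9.71% and 8.04% of all genes; the list median was 0.14 (log2), against -0.01 for all genes. P3H2, a prolyl 3-hydroxylase, had 77.4, 61.3 and 61.2 CPM in CXCL10 replicates 1, 2 and 3, against 57.5, 40.9 and 42.2 CPM in TGF-β replicates 1, 2 and 3. The groups did not overlap, as was so on the higher side for 11.1% of all genes tested. The rise was 0.51 (SE 0.07, adjusted p = 0.000208). FKBP14, a prolyl isomerase that binds procollagen, had 201, 177 and 189 CPM in CXCL10 replicates 1, 2 and 3, against 176, 121 and 123 CPM in TGF-β replicates 1, 2 and 3. It rose by 0.45 (SE 0.07, adjusted p = 0.000764), with TGF-β replicate 1 just below the lowest CXCL10 library. P3H4, a partner of the lysyl hydroxylase machinery, rose by 0.20 (SE 0.05, adjusted p = 0.0154), and the isomerase PPIB by 0.18 (SE 0.05, adjusted p = 0.0162). P3H1, named after its value was seen, was the 5th call at 0.14 (adjusted p = 0.0498). P4HB, the beta subunit of the collagen prolyl 4-hydroxylases, changed by 0.07 (adjusted p = 0.235) and CRTAP, which works in a complex with P3H1, by -0.10 (adjusted p = 0.156). Both were also named after their values were seen. In the unpaired fit 0 of the 13 passed. Without replicate 1 of both groups 9 rose and 1 fell, and 2 rose and 0 fell both without replicate 2 and without replicate 3. On log2(FPKM + 1) with pairing 1 rose (limma-trend), and with scaling by library totals 4 rose and 1, CRTAP, fell.

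**Figure D4:**
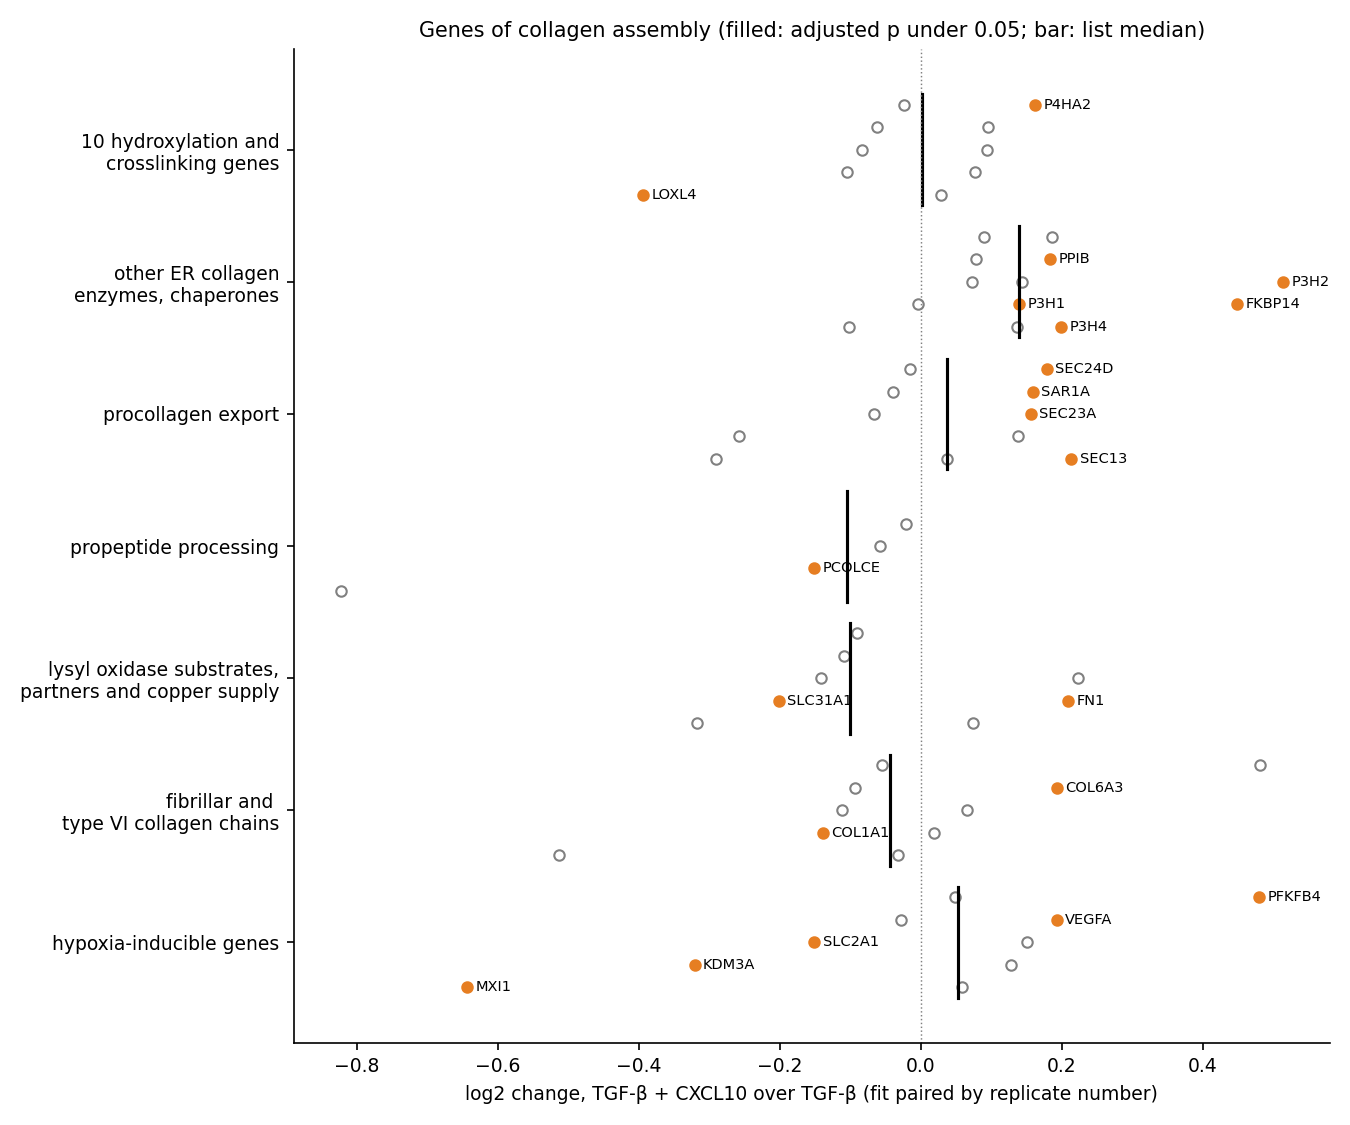
Log2 change with CXCL10 (TGF-β + CXCL10 over TGF-β) in the fit paired by replicate number for the tested genes of each list, with filled points for an adjusted p under 0.05 and a bar at the list median. In the list of other endoplasmic reticulum enzymes and chaperones 5 genes are called, all higher, and the 10 hydroxylation and crosslinking genes have 1 call on each side.

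Among genes that carry procollagen out of the endoplasmic reticulum, 4 of 11 were called higher and 0 lower with pairing (median 0.04), beside 9.71% and 8.04% of all genes: the coat subunits SEC13 (0.21, adjusted p = 0.00871), SEC24D (0.18, adjusted p = 0.0188) and SEC23A (0.16, adjusted p = 0.0333) and the coat-recruiting GTPase SAR1A (0.16, adjusted p = 0.0393). KLHL12, a ubiquitin ligase adaptor that enlarges the coat, was lower in all CXCL10 libraries without passing (-0.26, adjusted p = 0.104). Groups lay apart in either direction for 22.3% of all genes tested. MIA2, a receptor at exit sites, stood at -0.29 (adjusted p = 0.0568). Both KLHL12 and MIA2 were named after their values were seen. Without replicate 2 or without replicate 3 of both groups 0 of the 11 were called, and with library totals 2 were higher and 1 lower. Of 8 genes of propeptide removal 4 were tested, and PCOLCE, an enhancer of the C-proteinase, fell (-0.15, SE 0.05, adjusted p = 0.0464), the 1 call of 4 beside 17.7% of all genes. That call was absent in paired DESeq2, in paired limma-trend and without replicate 2 or replicate 3 of both groups. The C-proteinase BMP1, which also activates LOX, stood at -0.06 (adjusted p = 0.436), the N-proteinase ADAMTS2 at -0.02 (adjusted p = 0.814) and its relative ADAMTS14 at -0.82 (SE 0.33, adjusted p = 0.104) from 1.66 ± 0.54 CPM with CXCL10 and 2.89 ± 0.56 CPM with TGF-β alone.

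Genes around the lysyl oxidases went both ways. Of 10 substrates, partners and copper-supply genes 8 were tested. Paired calls were 1 higher and 1 lower, beside 9.71% and 8.04% of all genes, and the median was -0.10. FN1, the fibronectin that binds LOX and its activator in the matrix, had 40825, 39642 and 40865 CPM in CXCL10 replicates 1, 2 and 3, against 37993, 32637 and 34582 CPM in TGF-β replicates 1, 2 and 3. It rose by 0.21 (SE 0.04, adjusted p = 0.00127). SLC31A1, the copper importer, fell (-0.20, SE 0.05, adjusted p = 0.0117), to 156 ± 11.4 CPM with CXCL10, against 179 ± 15.1 CPM with TGF-β alone. Its call was absent without replicate 2 or replicate 3 and in paired DESeq2, that of FN1 without replicate 3, and both in paired limma-trend. EFEMP2, the fibulin that tethers LOX to tropoelastin, was lower in all CXCL10 libraries without passing (-0.14, adjusted p = 0.0823). Groups lay apart in either direction for 22.3% of all genes tested. The small proteoglycan FMOD stood at -0.32 (adjusted p = 0.0820). ELN and POSTN, a substrate and a scaffold of these enzymes, did not reach the filter. ELN had 0.27 ± 0.11 CPM with CXCL10 and 0.25 ± 0.10 CPM with TGF-β alone, and POSTN 0.15 ± 0.20 CPM with CXCL10 and 0.02 ± 0.04 CPM with TGF-β alone. With scaling by library totals the paired calls in this list became 1 higher and 5 lower.

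The collagen chains themselves gave 1 rise and 1 fall among 10 tested, with a median of -0.04, beside 17.7% of all genes called. COL6A3, a chain of the beaded filament collagen, rose by 0.19 (SE 0.04, adjusted p = 0.00571), and COL1A1, the major substrate, fell (-0.14, SE 0.03, adjusted p = 0.00835), while COL3A1 at -0.11 (adjusted p = 0.0532) and COL11A1 at -0.51 (adjusted p = 0.0796) did not pass. Without replicate 3 of both groups and in paired limma-trend 0 of the 10 were called. Of 12 hypoxia-inducible genes, a group listed because P4HA1, P4HA2, PLOD2 and LOX are known targets of hypoxia-inducible factors, 10 were tested, with 2 higher and 3 lower (median 0.05), beside 9.71% and 8.04% of all genes. PFKFB4 (0.48, adjusted p = 0.00618) and VEGFA (0.19, adjusted p = 0.0225) rose. MXI1 (-0.64, adjusted p = 0.0272), KDM3A (-0.32, adjusted p = 0.0219) and the glucose transporter SLC2A1 (-0.15, adjusted p = 0.0417, named after its value was seen) fell. None of these 5 was called in paired DESeq2 or paired limma-trend, and PFKFB4 alone was called without replicate 2 or without replicate 3. Over all 56 tested genes of these lists the paired calls were 13 higher and 6 lower. Scaling by library totals turned this to 9 and 14, and that of all genes to 877 higher and 1359 lower, against 1162 and 962.

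Set against the transcripts of their main substrates, the proportions of the enzymes overlapped between the groups. The 5 lysyl oxidases summed to 13.0%, 12.6% and 12.7% of the FPKM of COL1A1, COL1A2 and COL3A1 in CXCL10 replicates 1, 2 and 3, against 13.1%, 11.7% and 11.4% in TGF-β replicates 1, 2 and 3. TGF-β replicate 1 was the highest of all, and the other TGF-β libraries lay below every CXCL10 library. P4HA1 and P4HA2 summed to 3.94%, 3.50% and 3.65% in CXCL10 replicates 1, 2 and 3, against 3.66%, 2.93% and 2.78% in TGF-β replicates 1, 2 and 3. PLOD1 and PLOD2 summed to 6.80%, 5.70% and 5.96% in CXCL10 replicates 1, 2 and 3, against 6.05%, 5.10% and 4.97% in TGF-β replicates 1, 2 and 3. In each case TGF-β replicate 1 fell among the CXCL10 libraries or above them. SERPINH1 followed the same order, with 9.41%, 8.87% and 8.80% in CXCL10 replicates 1, 2 and 3, against 9.20%, 8.19% and 7.95% in TGF-β replicates 1, 2 and 3. The summed FPKM of the collagen chains was 8343 ± 445 with CXCL10 and 9355 ± 814 with TGF-β alone. That relative difference was larger than that of SERPINH1 or of LOX and smaller than that of LOXL4. The groups of the collagen sum overlapped, with TGF-β replicate 1 at 8443 FPKM, below CXCL10 replicates 2 and 3 at 8643 and 8555 FPKM. The proportion of P4HA2 to LOXL2 did not overlap between groups, at 0.427 ± 0.005 with CXCL10 and 0.367 ± 0.033 with TGF-β alone. That of SERPINH1 to P4HA2 did not overlap either, at 3.50 ± 0.07 with CXCL10 and 3.93 ± 0.29 with TGF-β alone. Both contain P4HA2 and were chosen after their values were seen. How often the ratio of other genes lies apart was not counted.

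**Figure D5:**
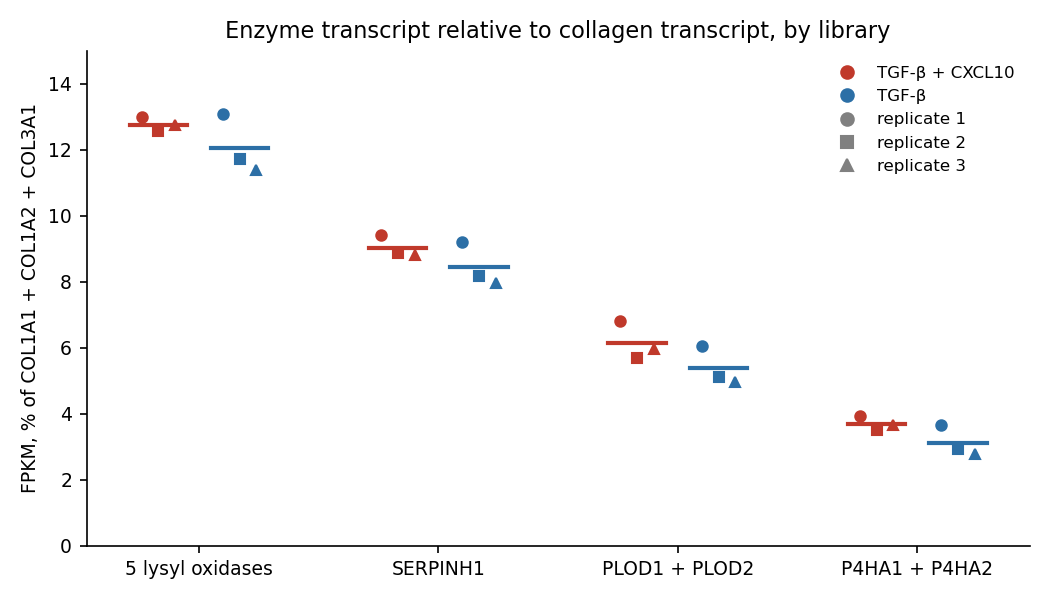
Summed FPKM of each enzyme group as a percentage of the summed FPKM of COL1A1, COL1A2 and COL3A1 in each library, with TGF-β + CXCL10 (red) left of TGF-β (blue), a point per library and a bar at the mean of 3. TGF-β replicate 1 (circle) lies at 13.1% for the lysyl oxidases and 3.66% for the P4HA subunits, among or above the CXCL10 libraries, and the other TGF-β libraries lie below them.

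For each of the 10 genes, the genes with the most similar course over the 6 libraries were found by the root mean square difference of centred log2 CPM among 9705 genes that averaged 5 CPM or more. TMEM65 was nearest to LOXL4 (difference 0.02, beside a spread of LOXL4 itself of 0.27), followed by GADD45A, a stress-inducible growth arrest gene (0.03). PLAA and PROCR, the endothelial protein C receptor, were nearest to P4HA2 (0.02 each, spread 0.10). The translocon partner TRAM1 and IGF2BP1 were nearest to P4HA1 (0.02 each, spread 0.08), ZZEF1 and STT3A, a catalytic subunit of oligosaccharyltransferase, to PLOD1 (0.01 and 0.02, spread 0.05), and GLYR1 and DDX3X to PLOD2 (0.01 each, spread 0.07). TWF2 and PYCR1, an enzyme of proline synthesis, were nearest to LOX (0.01 and 0.02, spread 0.05). All of these genes share the 6 libraries, and the likeness is a description only.

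Counts and FPKM of the same libraries did not place the groups alike for every gene. In scaled CPM the groups of P4HA2 and PLOD1 lay apart, higher with CXCL10, and in FPKM they overlapped. Those of LOXL2 and SERPINH1 overlapped in scaled CPM and lay apart, lower with CXCL10, in FPKM. Groups lay apart in scaled CPM for 22.3% of all genes tested. That share was not counted in FPKM, so the FPKM separations cannot be set against a background. Counts per FPKM, relative to the median gene of each library, varied by at most 1.06 times over the 6 libraries for the other 9 genes (LOXL2) and by 1.48 times for LOXL3, against a median of 1.09 times over genes with at least 50 counts in each library. LOXL3 had 2.30, 1.93 and 1.35 FPKM in CXCL10 replicates 1, 2 and 3, against 1.51, 1.88 and 3.16 FPKM in TGF-β replicates 1, 2 and 3. TGF-β replicate 3 thus stood 2.10 times as high as TGF-β replicate 1 in FPKM and 1.53 times in scaled CPM.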

How the data were processed

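Per the labels' protocols, RNA from an RNeasy kit was turned into SMARTer mRNA-seq libraries. Mouse builds (GRCm38, mm10) are named in the submitters' processing notes, yet 0 of the 20323 human row identifiers are in the mouse gene table, so no coordinates or sequences are given. Aligner, counter and strand setting: not given in the sources used here. The deposited table holds raw counts and the authors' FPKM per gene and library, per the file headers. Deposited beside these are FPKM averages by group made by the authors, a log2 ratio between them, and a p-value with its adjusted form whose test is not stated.

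Counts as deposited were tested over all genes with the quasi-likelihood test of edgeR 4.0.16 (R 4.3.3) after TMM scaling and filterByExpr (10 counts, 15 in total), at a Benjamini-Hochberg adjusted p under 0.05, without and with the replicate number as a block. Log2 CPM uses a prior count of 2. Same-numbered libraries deviated together from their group means (correlations over genes of 0.330, 0.121 and 0.163, each over 0.1), so the numbers were taken to pair the samples. The correlation was largest for replicate 1, and mismatched replicates 2 and 3 also correlated (0.0825 and 0.0803). This pairing comes from the data and not from the labels. DESeq2 1.42.0 and limma 3.58.1 (limma-trend on log2(FPKM + 1), and voom) were alternatives, and each library and each number was left out in turn. The tests were also run on simulated data with larger changes than those reported here and with a replicate effect built in. That run does not bear on changes of the size seen here or on whether the numbers pair the samples. Replicates are libraries that the labels number, and nothing says that they came from separate cultures, so p-values measure only the spread between these samples. Libraries of 1 group differed by more than sampling noise (chi-square per degree of freedom of at least 2.79). A count of 3, the limit that a count of 0 allows, equals 0.192 to 0.234 CPM for counting error only. The genes and lists were chosen with earlier results of these data known. Named in the text are the 10 genes, up to 4 genes per list with the lowest paired p, the 2 genes nearest in course to each of the 10 (given for 6 of them), the untested list members ELN and POSTN, and genes marked as named after their values were seen.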

Additional observations from a re-analysis of the deposited data

How the results depend on the processing

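Without pairing by replicate number edgeR called 0 genes, 0 of the 10 enzymes and chaperone and 0 of the 56 other pathway genes (2449 genes had an unadjusted p under 0.05), and the same held for limma-voom, limma-trend on log2(FPKM + 1), scaling by DESeq2 size factors or library totals, and no filter on low counts. For all genes, the 10 genes and the pathway genes in turn, the calls were 2124, 2 and 19 with the replicate block, 307, 0 and 2 with DESeq2 without it, and 1053, 2 and 8 with DESeq2 and the block. With the block they were 689, 1 and 1 by limma-trend on log2(FPKM + 1), 679, 1 and 1 on log2(FPKM + 0.1), 2236, 1 and 23 with library totals, and 2436, 2 and 21 with no filter. Leaving out 1 library without the block gave 0 to 2348 calls among all genes, 0 to 2 among the 10 genes and 0 to 21 among the pathway genes, with all calls in the fit without TGF-β replicate 1. Leaving out both libraries of a number with the block gave 2846, 4 and 28 calls without replicate 1, 1241, 1 and 6 without replicate 2, and 904, 1 and 3 without replicate 3.

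Of the single genes, LOXL2, LOXL4, PLOD1, PLOD2, P4HA1 and P4HA2 kept their sign in all 21 alternatives. LOX, at 0.0294 (log2), turned to -0.0237 in limma-trend on log2(FPKM + 1) with and without the block, -0.0238 on log2(FPKM + 0.1), -0.0138 with library totals, -0.0151 with library totals and the block, and -0.012 with the block without replicate 2. LOXL1 ranged from -0.1758 to 0.0265 when 1 library was left out and reached 0.0021 with the block without replicate 1. LOXL3 ranged from -0.2448 to 0.0686 when 1 library was left out and reached 0.1604 with the block without replicate 3. SERPINH1 reached 0.004 with the block without replicate 1. None of these 4 genes passed a test in any alternative. LOXL4 passed in 10 of 21 alternatives and P4HA2 in 5. Every one of these was a fit with the replicate block or the fit without TGF-β replicate 1. The alternatives share the same libraries and are not independent of each other. The cause of these differences was not tested. Depth limits LOXL3, with at most 86 counts per library.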
